A study of Arabidopsis thaliana with 8 samples.

Results

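CSLA01, AT1G48100 and PGIP2 are 3 Arabidopsis genes of cell wall polysaccharides, read here by 3 of the 22746 probe sets left after the array's controls were set aside. They were chosen by probe set ID with earlier results of these arrays in view, so their differences between the groups are given as a description, with no test. CSLA01 (AT4G16590, probe set 245465_at) belongs to the A family of cellulose synthase-like proteins. AT1G48100 (probe set 260727_at) is annotated as a polygalacturonase, and PGIP2 (AT5G06870, probe set 250669_at) as a polygalacturonase inhibitor. The gene table of the array names 2 of the 3 probe sets, and the name PGIP2 rests on the rule that chose the members. In the TAIR10.1 annotation PGIP1, a close relative, is the gene beside PGIP2, and no probe set is named for it in the tables used here. Whether PGIP1 transcripts add to the signal of the PGIP2 probe set was not tested.

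Mannans and glucomannans are hemicelluloses, and the CSLA family is known for building their backbone in the Golgi. Pectin is the gel between the cellulose fibrils, and its main chain, homogalacturonan, is a polymer of galacturonic acid. Polygalacturonases cut that chain. PGIP proteins are wall proteins with leucine-rich repeats, known for inhibiting the polygalacturonases of fungi, and PGIP genes are known to respond to wounding and infection.

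The arrays are Affymetrix ATH1 arrays, hybridised with total RNA from developing leaves, insertions 19 to 21, of Col-0 plants. Growth conditions given for all 8 samples were 20 °C, 50% humidity and 10 h of light, and all leaves were taken at 0 h. The elevated group (4 arrays) holds the samples labelled as elevated, taken here to mean raised CO2. Only the label of elevated replicate 1 gives its level, 750 ppm, and its 24 h of adjustment in a cuvette, and for elevated replicate 4 the text reads elevated with no gas named. The not-elevated group (4 arrays) holds the samples whose labels mention no raised CO2, including not-elevated replicate 1, whose title has another code than those of its group and whose text has a letter where theirs has the word control. The description shared by all 8 samples gives a normal atmosphere, so the grouping follows the treatment text and the title codes. The labels do not say whether replicates were separate plants, so SDs, SEs and p-values below describe how these samples varied, which may be technical variation. In bulk leaf RNA, more cells of a type and more RNA per cell cannot be told apart.

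Signals are MAS5 values in array units on a linear scale, with each array scaled to a trimmed mean of 100.01. The number of arrays limits the precision. Correlations between arrays ran from 0.967 to 0.986 across the 15296 probe sets that averaged 20 units or more. Of the markers listed for leaf mesophyll, epidermis, vascular tissue and pollen, 0 were named in the gene table used here, so the tissue label could not be checked with them. That table names no gene for 8730 of the 22746 probe sets, so a gene not named may still be on the array. Of 5 guard cell markers listed, 3 were named and 2 reached the mean signal of 20 units. These were the stomatal lineage genes SPCH and FAMA (listed as FMA), which are active where stomata form in young leaves. They read 96.6 to 137.9 and 49.2 to 75.3 units in the not-elevated arrays, and MUTE, below the filter, read 2.61 to 31.8 units. EXPA7, an expansin gene of root hairs, read 27.6 ± 1.90 units there (SD, n = 4).

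CSLA01, the mannan synthase gene, was higher with elevated CO2. Its signal was 31.0, 37.8, 25.3 and 28.0 units in not-elevated replicates 1 to 4, and 65.1, 60.3, 87.5 and 65.7 units in elevated replicates 1 to 4. The 2 groups did not overlap, with 22.5 units between the highest not-elevated and the lowest elevated array, and elevated replicate 3 was the highest of all. The group means were 30.5 ± 5.37 and 69.7 ± 12.2 units (SD, n = 4 each), a ratio of 2.28. The not-elevated mean is near that of the root hair gene EXPA7 (27.6 units). Without detection calls it cannot be set against background, so the ratio is uncertain. On the log2(signal + 10) scale the difference was 0.97 ± 0.13 (SE of the fit). Of the 15296 probe sets tested, 10 had a difference at least as large in the same direction, counting CSLA01 itself. The spread in proportion to the mean was alike in the groups, 17.6% and 17.5%.

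PGIP2, the inhibitor gene, was higher with elevated CO2 as well. It read 140.2, 145.7, 122.5 and 134.8 units in the not-elevated replicates and 206.5, 389.4, 273.9 and 213.0 units in the elevated replicates, in the order 1 to 4. The groups did not overlap, and the gap between them was 60.8 units. The not-elevated arrays lay close together, whereas elevated replicate 2 stood well above the other 3 of its group. Means were 136 ± 9.94 and 271 ± 84.8 units (SD, n = 4 each), a ratio of 1.99 and a log2 difference of 0.90 ± 0.16 (SE), and 12 tested probe sets, PGIP2 included, differed by at least as much upward. The coefficient of variation was 7.32% without and 31.3% with elevated CO2. The within-group SD of PGIP2, 0.30 on the log2 scale, was larger than that of 96.7% of the 1291 tested probe sets within 1.2-fold of its mean signal.

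AT1G48100, the polygalacturonase gene, was lower with elevated CO2. The not-elevated replicates 1 to 4 read 142.4, 162.6, 167.5 and 189.1 units, and the elevated replicates 104.5, 106.8, 118.4 and 116.5 units. Again the groups were apart, here by 24.0 units, with every elevated array below every not-elevated one. Means were 165 ± 19.2 and 112 ± 6.91 units (SD, n = 4 each), so the signal without elevated CO2 was 1.48 times that with it. The log2 difference was -0.52 ± 0.10 (SE), and 138 tested probe sets, AT1G48100 included, were lower by at least as much. Its elevated arrays were the tightest set of the 3 genes, with a coefficient of variation of 6.20% against 11.6% in the not-elevated arrays.

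**Figure D1:**
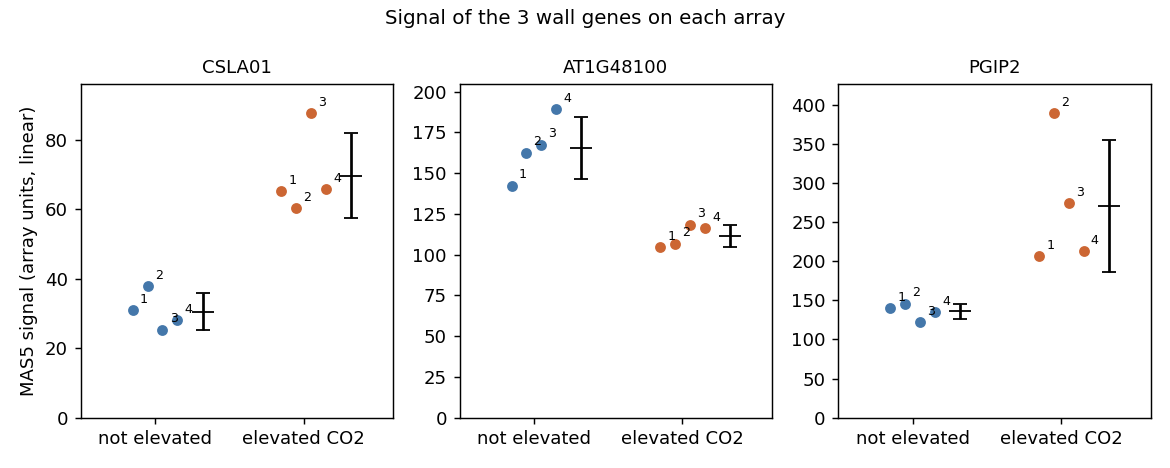
MAS5 signal in array units (linear axis from 0) of CSLA01, AT1G48100 and PGIP2 on each array, not elevated in blue and elevated CO2 in orange, with the replicate number beside each point and the group mean ± SD in black (n = 4 each). The groups are apart in each of the 3 genes, and elevated replicate 2 reads 389.4 units for PGIP2.

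Across all 15296 tested probe sets the groups failed to overlap upward in 2.90% and downward in 3.22% of cases. For CSLA01, PGIP2 and AT1G48100 the choice of members used this contrast, so nothing is read from their separation beyond its size. CSLA01 and PGIP2 differed by like amounts on the log2 scale and AT1G48100 by less, but the order depends on the scale. With a pseudocount of 1 in place of 10, CSLA01 differed by 1.16 and PGIP2 by 0.94, whereas with a pseudocount of 50 they differed by 0.57 and 0.75, since a larger pseudocount shrinks the differences of dim probe sets. With quantile normalization the differences of CSLA01, PGIP2 and AT1G48100 were 0.97, 0.91 and -0.52, with scaling to a common median 0.98, 0.91 and -0.52, and the groups of each gene stayed apart under both. The other settings could not make separate groups overlap, so they bear on the size of a difference alone. AT1G48100 ran from -0.59 to -0.41 over all 18 alternative settings. Without not-elevated replicate 1, whose label differs from those of its group, CSLA01 differed by 0.98, PGIP2 by 0.92 and AT1G48100 by -0.59. Leaving out elevated replicate 2, its highest array, gave the smallest PGIP2 difference, 0.72 ± 0.11 (SE).

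**Figure D2:**
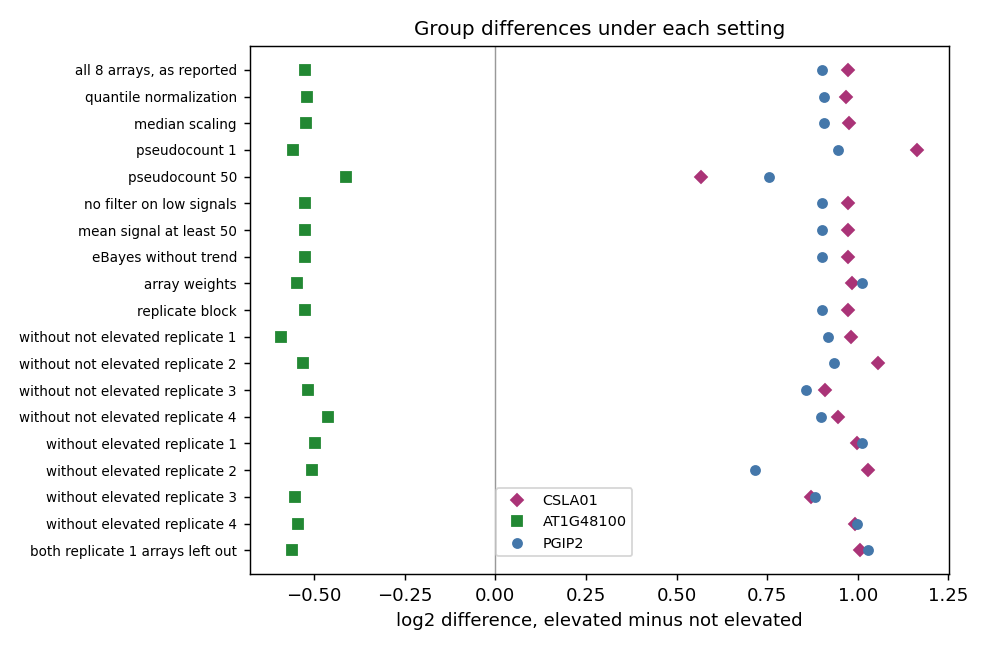
Log2 difference (elevated minus not elevated) of CSLA01 (diamonds), AT1G48100 (squares) and PGIP2 (circles) with all 8 arrays and under each of 18 other settings, 1 setting per row. CSLA01 runs from 0.57 to 1.16, PGIP2 from 0.72 to 1.03 and AT1G48100 from -0.59 to -0.41.

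Whether the 3 genes varied together was examined inside the groups, since a correlation over all 8 arrays is fixed by the group differences for which they were chosen. Each array's deviation from its group mean was taken on the log2 scale, and Pearson's r and Spearman's rho were computed over 8 arrays with two-sided exact permutation within groups (576 orders) for the 3 pairs. CSLA01 and AT1G48100 gave r = 0.046 (exact permutation p = 0.903) and rho = 0.024 (p = 0.979). CSLA01 and PGIP2, which were both higher with elevated CO2, gave r = 0.052 (exact permutation p = 0.934) and rho = 0.24 (p = 0.632). AT1G48100, the polygalacturonase gene, and PGIP2, the inhibitor gene, gave r = -0.14 (exact permutation p = 0.694) and rho = -0.048 (p = 0.938). After Benjamini-Hochberg adjustment over the 3 pairs the exact permutation p was 0.934 for each r and 0.979 for each rho, so no covariation was detected with 8 arrays. Leaving out the 2 arrays whose deviation of the gene named first lay farthest from the median deviation, a choice made after the data were seen, gave r = -0.40, -0.31 and -0.19 in the same order (exact permutation p = 0.722, 0.556 and 0.896). In these arrays 92.3%, 91.3% and 77.5% of all tested probe sets had a correlation with the first gene of the pair at least as strong in size.

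The value for CSLA01 and PGIP2 rested on 1 array. Elevated replicate 2 had the lowest CSLA01 of its group (60.3 units) and the highest PGIP2 of all (389.4 units). Without it r was 0.92 over 7 arrays (exact permutation p = 0.00694, the smallest that 144 orders can give, not adjusted for the arrays left out in turn). Without each of the other 7 arrays in turn r ran from -0.052 to 0.050. In the 4 not-elevated arrays alone the order of CSLA01 and of PGIP2 was the same, with replicate 2 highest and replicate 3 lowest in both (r = 0.919). In the 4 elevated arrays r was -0.13. For CSLA01 and AT1G48100 r was -0.33 in the not-elevated and 0.71 in the elevated arrays, and for AT1G48100 and PGIP2 -0.32 and -0.15. These r over 4 arrays were not tested.

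**Figure D3:**
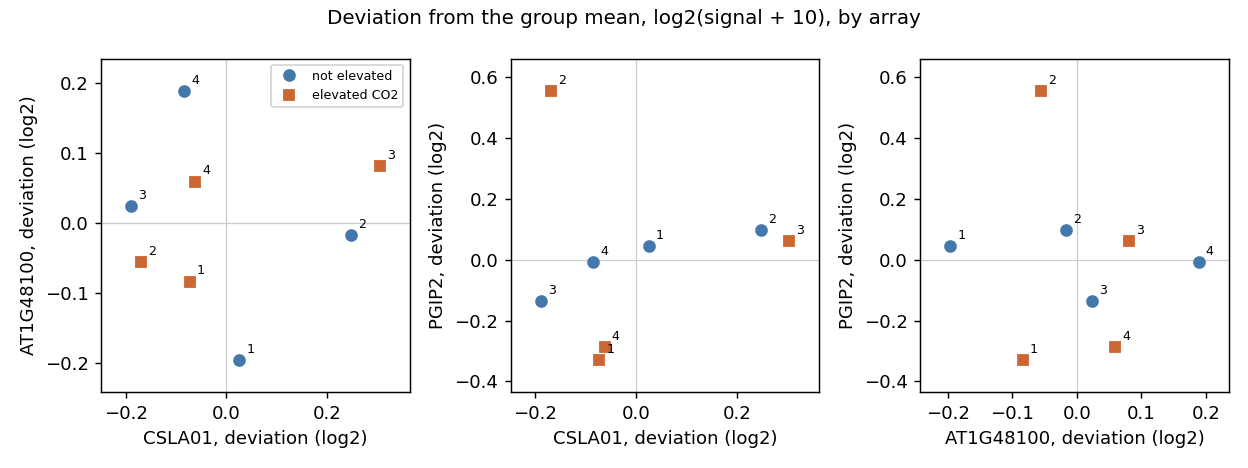
Deviation of each array from its group mean on the log2(signal + 10) scale for the pairs of CSLA01, AT1G48100 and PGIP2, with not-elevated arrays as blue circles, elevated CO2 arrays as orange squares and replicate numbers beside them. In the middle panel elevated replicate 2 lies apart from the other 7 arrays, which give r = 0.92 between CSLA01 and PGIP2.

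The genes most like each member by the same within-group r, out of 8485 tested probe sets that name 1 gene, had group differences from -0.42 to 0.29 on the log2 scale. For CSLA01 they were SDRB (r = 0.98), AT2G42450, AT2G15500, AT4G14350 and UGT74D1, a glucosyltransferase gene that read 189 units without and 145 with elevated CO2 (log2 difference -0.39, limma adjusted p = 0.409). For AT1G48100 they were AT5G57330 (r = 0.97), AT2G40700, AT5G24740, AT3G12130 and AT5G65750, with log2 differences from -0.11 to 0.028. For PGIP2 they were AT1G34630 (r = 0.98), AT1G56310, CML41 of the calmodulin-like family, SCPL27 of the serine carboxypeptidase-like family and AT5G16860. AT1G56310 read 47.7 units without and 35.1 with elevated CO2 (log2 difference -0.42, limma adjusted p = 0.442). Of these 15 genes 0 passed a limma adjusted p of 0.05 and 2 had an unadjusted p under 0.05, beside 0.314% and 11.1% of all tested probe sets. The lists are a description over 8 arrays, since the highest of so many correlations is large by selection.

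Other genes of mannan and pectin metabolism were then set beside the members. Of 240 listed loci, 103 are named in the gene table or are members, and 62, the members left out, were tested with limma over all 15296 probe sets. None of the 62 passed an adjusted p of 0.05, against 0.314% of all tested probe sets, and 6 had an unadjusted p under 0.05, where 11.1% of all tested probe sets did. Neither count stands above the share over all tested probe sets. Of the 62, 38 were higher and 24 lower, with a median log2 difference of 0.06 and a range from -0.28 to 0.41, beside a median of 0.0013 over all tested. The groups did not overlap in 2 of them, 3.23% against 6.11% of all tested probe sets. These 2 were AT1G10640, a listed polygalacturonase, and AT5G19730, a listed pectin methylesterase named here after its values were seen, and both read lower with elevated CO2. CSLA01 and PGIP2 lay above, and AT1G48100 below, the range of the 62. The members were chosen with this contrast in view and the lists with earlier results known, so nothing is read from that.

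**Figure D4:**
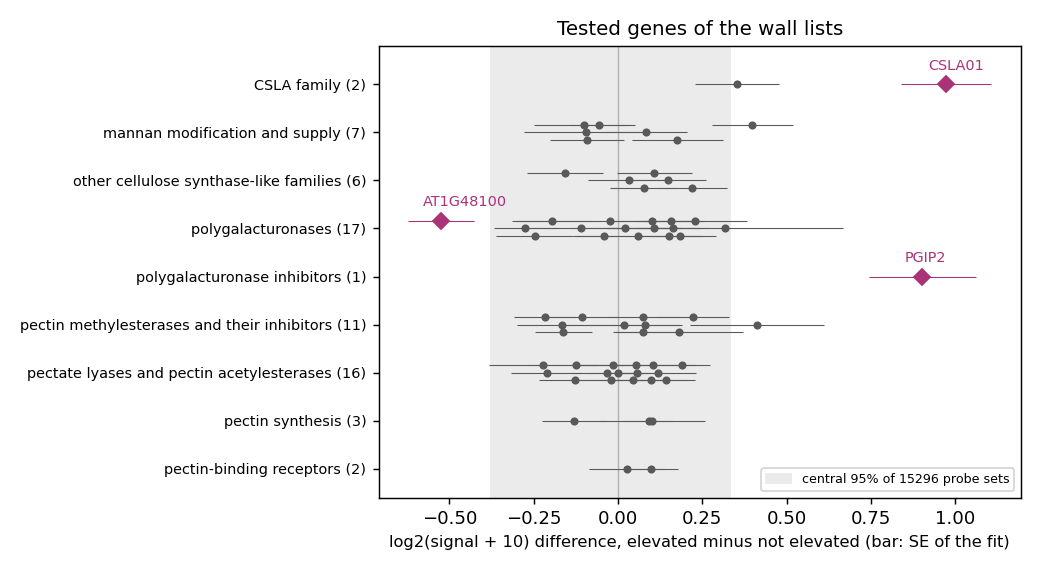
Log2(signal + 10) difference, elevated minus not elevated, of each tested gene of 9 wall lists (number tested in brackets) with the SE of the fit. The shaded band holds the central 95% of all tested probe sets, from -0.38 to 0.33; the 3 diamonds are CSLA01, AT1G48100 and PGIP2, and the circles are the other 62 genes, from -0.28 to 0.41.

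On the mannan side CSLA03 is the 1 other member of the CSLA family named in the gene table used here. It read 71.1, 71.3, 61.9 and 58.5 units in the not-elevated replicates and 69.3, 94.4, 80.0 and 106.3 units in the elevated ones. The groups overlapped through elevated replicate 1, and the log2 difference of 0.35 ± 0.12 (SE) had a limma adjusted p of 0.287. Whether CSLA01 and CSLA03 differ in response was not tested. Of 7 genes of mannan modification and precursor supply, 3 were higher and 4 lower, with a median log2 difference of -0.06. TBL26, of a family of wall polysaccharide acetyltransferases and listed for mannan, read 214.9, 197.9, 152.0 and 186.3 units without and 204.0, 264.9, 286.0 and 247.9 units with elevated CO2. Its elevated replicate 1 fell among the not-elevated arrays, and the log2 difference was 0.40 ± 0.12 (SE) with a limma adjusted p of 0.207. With both replicate 1 arrays left out TBL26 rose by 0.56 ± 0.11 (SE, limma adjusted p = 0.0399), the 1 call among the 62 genes in any setting. In that setting 144 of the 15296 probe sets passed, or 0.941%, so 1 call among 62 genes is near the share over all tested probe sets. AT1G74910, listed for GDP-mannose supply, had a log2 difference of 0.18 (limma adjusted p = 0.679).

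Of the other cellulose synthase-like families, 6 genes were tested, 5 higher and 1 lower, with a median log2 difference of 0.09. CSLC04 of the C family, known for the glucan backbone of xyloglucan, differed by 0.22, and CSLC5 (AT4G31590) by -0.16 (limma adjusted p = 0.457 and 0.653). These 6 genes ranged from -0.16 to 0.22. The CSLA01 difference of 0.97 is not compared with them, since CSLA01 was chosen with this contrast in view. The cellulose synthase genes themselves had 0 members named in the gene table used here, which does not show that the array lacks them.

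On the pectin side, 44 of 64 listed polygalacturonase loci are named in the gene table used here and 17 reached the mean signal of 20 units, AT1G48100 among them. Of the other 16, 10 were higher and 6 lower, with a median log2 difference of 0.08. The polygalacturonase AT1G10640 read 337.9, 286.8, 282.8 and 352.6 units in the not-elevated replicates and 260.8, 271.3, 253.2 and 244.0 units in the elevated ones. Every elevated array was below every not-elevated one, as for AT1G48100, and the log2 difference of -0.28 ± 0.09 (SE) had a limma adjusted p of 0.252. AT3G62110 and AT3G61490 differed by -0.25 and -0.20, with limma adjusted p = 0.449 and 0.589. The differences of AT5G27530 (0.32), AT1G19170 (0.23), AT3G06770 (0.18), AT4G33440 (0.16), AT1G60590 (0.16), AT3G16850 (0.15) and AT4G23820 (0.10) were upward, with limma adjusted p from 0.553 to 0.822. The 27 polygalacturonase loci below the filter were not tested. PGIP2 is the 1 gene of the inhibitor list named here, so the list gives no relative to set beside it.

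Pectin methylesterases take methyl groups off homogalacturonan, and pectate lyases cleave the chain. Of 11 genes of methylesterases and their inhibitors, 7 were higher and 4 lower (median 0.07). AT5G09760 read 176 ± 11.7 units without and 150 ± 11.98 units with elevated CO2 (log2 difference -0.22, limma adjusted p = 0.380), and PME61 (AT3G59010) read 316 ± 29.0 and 372 ± 51.1 units (0.22, adjusted p = 0.470). Of 16 pectate lyase and pectin acetylesterase genes, 8 were higher and 8 lower, with a median of 0.02. AT1G04680, listed as a pectate lyase, read 612 ± 32.9 and 700.5 ± 51.5 units (0.19, limma adjusted p = 0.414), and AT5G48900 differed by -0.21 (adjusted p = 0.493). In pectin synthesis 3 genes were tested, AT3G49720 at 0.09, AT5G15740 at -0.13 and GAUT15, named after its value was seen, at 0.10. The receptor kinases FER and THE1, which sense the state of the wall, differed by 0.10 and 0.03 (limma adjusted p = 0.718 and 0.959).

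Beside these values, the stomatal lineage markers FAMA and SPCH differed by 0.04 and -0.18 between the groups (limma adjusted p = 0.951 and 0.598), and EXPA7 by -0.17 (adjusted p = 0.825). The summed signal of SPCH and FAMA was 160.7 to 167.7 units in the elevated arrays and 157.4 to 191.6 units in the not-elevated ones. The part of cell composition in the differences of CSLA01, AT1G48100 and PGIP2 was not tested.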

How the data were processed

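The deposited values are linear probe set intensities. The authors computed them with MAS5 (version not given in the sources used here), per the submitters' processing notes. MAS5 merges the probe pairs of a probe set and scales each array, so a change shared by all transcripts is not seen. Detection calls were not used here. Samples were grouped by their labels. The members and lists were chosen with earlier results of these data known.

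Of 22746 probe sets (64 controls left out), 15296 with a mean of at least 20 units were tested on log2(signal + 10) with limma 3.58.1 (R 4.3.3; eBayes with a variance trend, two-sided, Benjamini-Hochberg at 0.05). The pseudocount shrinks differences of dim genes. Simulated arrays had 15296 probe sets, 200 of them changed 1.5-fold or 2-fold in signal + 10. The fit recovered 58.2% of the 1.5-fold and 94.0% of the 2-fold changes (3 runs each). In dim probe sets such a change is a larger fold of the signal itself. The simulated noise was normal and independent between probe sets and arrays, so recovery in the real arrays may differ. Probe sets were named through the platform table and RefSeq gene numbers (TAIR10.1): 13513 name 1 gene, of which 13436 matched a locus, 503 name several and 8730 none. The brightest probe set stood for a gene. Genome coordinates were used only to find the gene on each side of a member, and sequences were not used. Named genes are the members, up to 10 tested relatives in the CSLA, polygalacturonase and inhibitor lists, the 2 genes of each other list with the smallest p, and the 5 genes most like each member. Alternatives changed the scaling, pseudocount, filter, variance model, weights, replicate block or arrays used.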

Additional observations from a re-analysis of the deposited data

Results flagged for a closer look

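Dixon's test was used to look for a highest or lowest array far from its 3 companions in 82 groups of 4 arrays of the named genes. It picked out 4 groups, where chance gives 4.1, and none of CSLA01, AT1G48100 or PGIP2. The genes most like a member were picked by the shape of their values, so the chance figure is rough for them. CSLC5, the cellulose synthase-like C gene, had a signal of 171.3 units in elevated replicate 1, with the rest of that group between 237.8 and 248.2. The listed polygalacturonase AT5G27530 stood at 50.9 units in not-elevated replicate 2, with the rest between 17.2 and 22.8. SDRB reached 220.9 units in elevated replicate 3, against 167.1 to 174.2 in its companions. CSLA01 was highest in that array too, but SDRB was picked as the gene most like CSLA01 within groups, so nothing is read from that. AT5G16860 was at 22.0 units in not-elevated replicate 2, with its companions between 21.0 and 21.2.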

How the results depend on the processing

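The differences of AT1G48100 and PGIP2 moved by less than the within-group SD under each alternative run, and that of CSLA01 under all but the pseudocount of 50 (0.57). With 1 array left out in turn CSLA01 ran from 0.87 to 1.05, AT1G48100 from -0.59 to -0.46 and PGIP2 from 0.72 to 1.01. Within-group r, also with 1 array left out, ran from -0.26 to 0.27 for CSLA01 and AT1G48100, from -0.052 to 0.92 for CSLA01 and PGIP2, and from -0.37 to 0.10 for AT1G48100 and PGIP2. For CSLA01 and PGIP2, r was -0.051 with both replicate 1 arrays left out. With the replicate block it was -0.14, there computed on the differences between same-numbered arrays (24 orders) and so not a within-group r. For AT1G48100 and PGIP2, r was 0.071 with scaling to a common median. Without the 2 arrays that deviated most in the gene named first, chosen after the data were seen, r was -0.40 for CSLA01 and AT1G48100 and -0.31 for CSLA01 and PGIP2, neither past the exact permutation test. A change of sign in r that passes no test carries no call.

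With limma 48 probe sets passed; 30 did with quantile normalization, 28 with a pseudocount of 1, 1 with no filter on low signals (22746 tested, and not among the 48), 9 without the trend, 132 with array weights and 144 with both replicate 1 arrays left out. With 1 array left out the number ran from 0 (without not-elevated replicate 3, 1395 at an unadjusted p under 0.05) to 131 (without not-elevated replicate 1). The cause of these shifts was not tested. Of the other 62 wall genes, 1 passed with both replicate 1 arrays left out and 0 under each of the other 17 settings. In the setting that asked for a mean signal of at least 50 units, only 48 of these wall genes were tested. Same-numbered arrays did not deviate together (r from -0.18 to -0.037), so no pairing by number was detected. Whether same-numbered samples share a run cannot be settled by these correlations. The fit with the replicate block called 50 probe sets, 32 of them among the 48 that passed in the fit without it. Detection calls were not used, so low signals such as those of CSLA01 cannot be set against background.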
